A study of Homo sapiens with 2 samples.

Results

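The 10 genes described here encode the core subunits of cohesin (SMC1A, SMC3, RAD21, STAG1 and STAG2) and of condensin (SMC2, SMC4, NCAPD2, NCAPG and NCAPH), the ring-shaped complexes that organise chromosomes. They were taken by gene symbol from the deposited count tables. All 10 members were found, each on 1 row, among 52402 symbols, and all 10 passed the minimum level for comparison, a mean of 1 count per 1000000 (CPM) over both libraries, as did 12644 symbols in all. RNA was sequenced from DLD1, an epithelial line derived from a human colorectal adenocarcinoma. The genotype label of 1 library is a HERV-R knockout, HERV-R being an endogenous retrovirus of the human genome, and 1 control library is labelled wild type. Both labels describe transfection with Cas9 and guide RNA vectors followed by hygromycin selection of colonies. The sources used here do not state whether either library came from a single clone, or which guide the control received. The knockout-labelled library held 16406308 counts and the control 21881122.

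Cohesin holds sister chromatids together from replication until anaphase, and in interphase it folds DNA into loops that often end at sites bound by CTCF. Its ring is made of SMC1A, SMC3 and RAD21, and each ring carries either STAG1 or STAG2. Condensin compacts mitotic chromosomes. Condensin I and condensin II share the ATPase pair SMC2 and SMC4 and differ in their other subunits, which are NCAPD2, NCAPG and NCAPH in condensin I. In bulk RNA, more RNA per cell and a larger share of cells in a given cell cycle phase cannot be told apart.

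The members whose values stood furthest apart were STAG1 and NCAPG. The 250 bases upstream of the RefSeq start sites of STAG1, of its paralog STAG2 and of NCAPG are shown (RefSeq, GRCh38.p14), because their RNA differed in opposite directions or by the most. The windows are chr3:136752379-136752628 on the minus strand for STAG1, chrX:123960310-123960559 on the plus strand for STAG2, which has 3 RefSeq starts of which this is the most upstream, and chr4:17810729-17810978 on the plus strand for NCAPG. Capitals mark matches on either strand to 4 motifs. TTTGAA is the cell cycle homology element. CCAAT is the box of that name. GCGGGAA is an E2F-type element, and so is the longer form GCGCCAAA.
STAG1: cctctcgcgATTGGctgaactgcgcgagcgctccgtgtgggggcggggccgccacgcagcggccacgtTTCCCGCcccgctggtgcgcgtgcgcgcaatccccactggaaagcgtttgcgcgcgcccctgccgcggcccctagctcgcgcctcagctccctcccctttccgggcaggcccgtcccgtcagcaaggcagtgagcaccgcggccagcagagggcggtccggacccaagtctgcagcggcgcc
STAG2: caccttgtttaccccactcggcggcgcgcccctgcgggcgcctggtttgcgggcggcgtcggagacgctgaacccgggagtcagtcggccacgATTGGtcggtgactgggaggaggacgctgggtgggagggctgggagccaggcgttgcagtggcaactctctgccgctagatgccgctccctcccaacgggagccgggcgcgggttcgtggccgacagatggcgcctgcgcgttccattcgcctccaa
NCAPG: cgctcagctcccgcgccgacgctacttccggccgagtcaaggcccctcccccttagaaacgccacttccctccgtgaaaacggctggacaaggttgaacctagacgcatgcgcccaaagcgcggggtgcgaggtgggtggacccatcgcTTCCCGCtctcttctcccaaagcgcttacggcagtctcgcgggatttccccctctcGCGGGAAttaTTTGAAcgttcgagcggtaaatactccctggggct

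With 1 library per group there is no spread between replicates, no test and no p-value. A ratio below is the CPM of the knockout-labelled library over that of the control, with an exact 95% interval by the Clopper-Pearson method, given the sum of both counts. Such intervals hold the error of counting and nothing of the variation between cultures. A gene passed the size rule when its log2 ratio, taken after 1 CPM was added to both libraries, was at least 1 or at most -1. ERV3-1, which encodes the HERV-R envelope, was taken as the targeted gene. It had 125 counts (7.62 CPM) in the knockout-labelled library and 127 (5.80 CPM) in the control, a ratio of 1.31 (1.02 to 1.69). On the same locus the read-through gene ERV3-1-ZNF117 had 174 counts in the knockout-labelled library and 220 in the control, and ZNF117 had 46 counts in the knockout-labelled library and 0 in the control, and passed the size rule as higher, though not with a pseudocount of 5 CPM (log2 ratio 0.64). How reads in any sequence shared by these genes were assigned to the 3 rows is not stated in the sources used here. The sources used here do not state where the guide cuts. Small insertions or deletions need not change a gene-level count, so these counts do not show whether the locus was edited. The label is used as given. Of 8 colon epithelial line markers, 6 were measured. EPCAM had 749.8 CPM in the knockout-labelled library and 700.6 in the control, the keratins KRT8 and KRT18 were lower by the size rule and CDX2 was higher, and KRT20 and CDX1 were at 0 counts in both libraries. Of the markers of other cell types, 1 of 7 fibroblast, 1 of 5 immune and 0 of 4 endothelial genes were measured. Their summed levels were 2.68, 0.975 and 0.427 CPM in the knockout-labelled library, and 5.76, 2.47 and 0.640 CPM in the control.

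Of the 10 members, 2 passed the size rule as higher in the knockout-labelled library, STAG1 and NCAPG, and 0 as lower. The background was 6.78% of all compared symbols higher and 5.69% lower. At a 1.5-fold rule 3 members were higher, SMC1A being the further one, and 0 were lower, against a background of 20.3% and 13.2%. At a 3-fold rule 0 members were higher and 0 lower, with 0.933% and 1.81% of all compared symbols. The median log2 ratio of the members was 0.44, and that of all compared symbols was 0.12. A total of 8 members lay above that general median, and RAD21 and STAG2 lay below it and below 0. TMM scaling (a trimmed mean of log ratios) shifts the log2 ratio of each member by -0.12. The sign of each of the 10 ratios and the membership of the higher pair were the same with TMM, the upper quartile and the median of gene ratios. With TMM, 4.75% of all compared symbols were higher and 6.95% lower by the 2-fold rule.

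**Figure D1:**
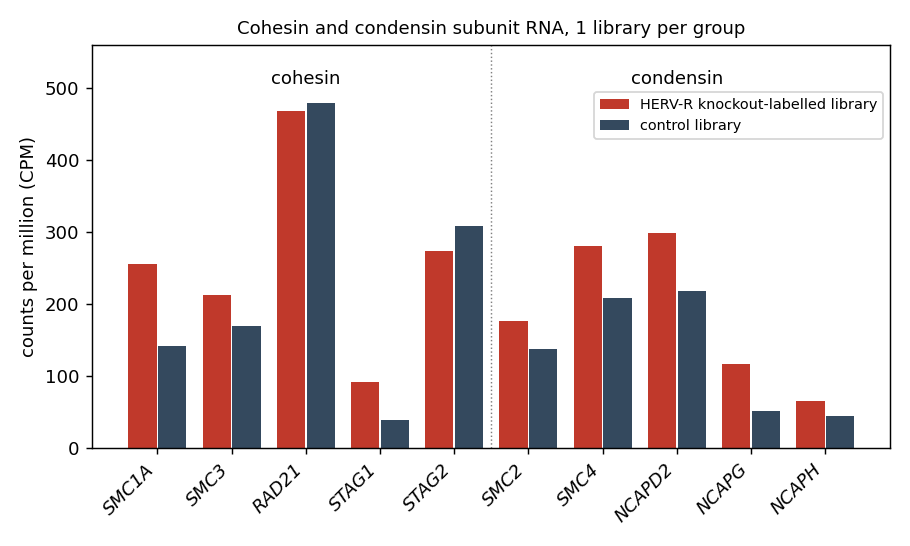
Level of each subunit in CPM (vertical axis, linear from 0) in the knockout-labelled library (red) and the control (dark blue), 1 library per group, so there are no error bars. STAG1 stands at 92.2 CPM in the knockout-labelled library against 38.8 in the control, and NCAPG at 117 against 51.1, while RAD21 and STAG2 are the members that are lower in the knockout-labelled library.

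Within the cohesin ring, SMC1A and SMC3, the ATPase subunits that pair at their hinges, differed in size. SMC1A (chrX:53374149-53422728) had 4181 counts (254.8 CPM) in the knockout-labelled library and 3113 (142 CPM) in the control, a ratio of 1.79 (1.71 to 1.88). SMC3 (chr10:110567695-110606048) had 3485 counts (212 CPM) in the knockout-labelled library and 3709 (169.5 CPM) in the control, a ratio of 1.25 (1.20 to 1.31). SMC1A thus made up 54.5% (53.4 to 55.7) of the counts of this pair in the knockout-labelled library and 45.6% (44.4 to 46.8) in the control. This share does not depend on how the libraries are scaled, and the SMC1A to SMC3 ratio of counts was 1.43 times (1.34 to 1.53) that of the control.

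RAD21, the kleisin that closes the ring and is cut by separase at anaphase, was the most abundant member in both libraries. It lies at chr8:116845934-116874776. It had 7672 counts (467.6 CPM) in the knockout-labelled library and 10471 (478.5 CPM) in the control, a ratio of 0.977 (0.949 to 1.01). The interval includes 1 with library totals, but the log2 ratio is lower with the other scalings, where RAD21 stood at -0.15 (TMM) to -0.19 (median of gene ratios).

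STAG1 and STAG2 are alternative subunits that bind RAD21 and help place cohesin on chromatin. STAG1 (chr3:136336236-136752378) had 1512 counts (92.2 CPM) in the knockout-labelled library and 849 (38.8 CPM) in the control, a ratio of 2.38 (2.18 to 2.59) and a log2 ratio of 1.23. STAG2 (chrX:123960560-124102656) had 4498 counts (274 CPM) in the knockout-labelled library and 6747 (308 CPM) in the control, a ratio of 0.889 (0.856 to 0.923). The paralogs stood on opposite sides of 1, and both intervals excluded it. STAG1 made up 25.2% (24.1 to 26.3) of the STAG1 and STAG2 counts in the knockout-labelled library and 11.2% (10.48 to 11.9) in the control. The STAG1 to STAG2 ratio was 2.67 times (2.43 to 2.93) as high, a value free of scaling. STAG2 remained the more abundant paralog in both libraries, and the pair together took 28.2% (27.5 to 28.8) of all cohesin subunit counts in the knockout-labelled library and 30.5% (29.9 to 31.1) in the control. Reads of the paralogs can be told apart at this length of sequence, since 0 of the 8076 windows of 50 bases in STAG1 transcripts (GENCODE 29) occurred in STAG2 transcripts.

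**Figure D2:**
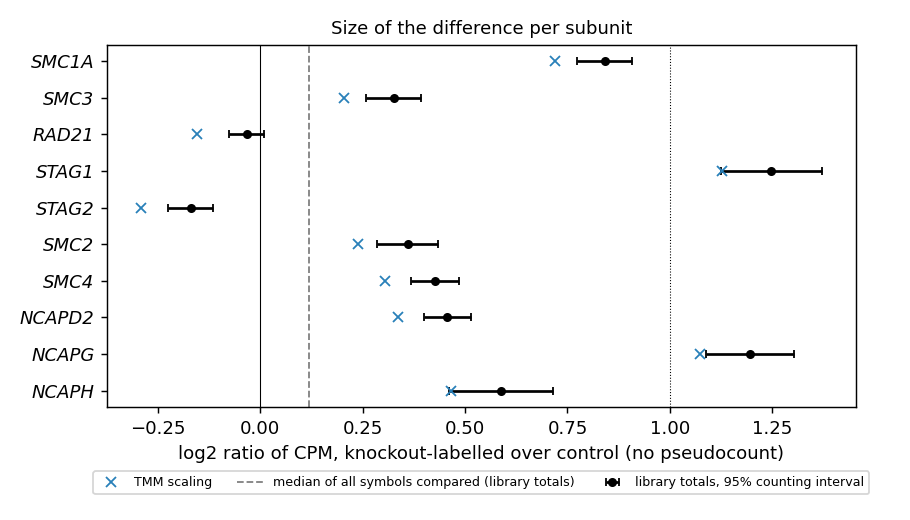
Log2 ratio of CPM without a pseudocount, knockout-labelled over control, per subunit (horizontal axis). Black points are ratios with library totals and their 95% counting intervals, blue crosses the same ratios with TMM scaling, the dashed line the median of all compared symbols (0.12) and the dotted line a 2-fold difference; STAG1 and NCAPG lie right of the dotted line with both scalings, and RAD21 and STAG2 left of 0.

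The condensin members were all above 1 in ratio, while 58.1% of all compared symbols had a log2 ratio above 0. Of the 5 members, 4 lay close together. SMC2 (chr9:104088263-104141419), an ATPase of both condensins, had 2887 counts (176 CPM) in the knockout-labelled library and 3000 (137 CPM) in the control, a ratio of 1.28 (1.22 to 1.35). Its partner SMC4 (chr3:160399650-160434953) had 4599 counts (280.3 CPM) in the knockout-labelled library and 4563 (208.5 CPM) in the control, a ratio of 1.34 (1.29 to 1.40). SMC4 made up 61.4% (60.3 to 62.5) of the SMC2 and SMC4 counts in the knockout-labelled library and 60.3% (59.2 to 61.4) in the control. The SMC4 to SMC2 ratio was 1.05 times (0.980 to 1.12) that of the control, an interval that includes 1.

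NCAPD2, NCAPG and NCAPH are the subunits particular to condensin I. NCAPH is its kleisin, and NCAPD2 and NCAPG are HEAT-repeat subunits that bind it. NCAPD2 (chr12:6494102-6531955) had 4904 counts (298.9 CPM) in the knockout-labelled library and 4765 (218 CPM) in the control, a ratio of 1.37 (1.32 to 1.43). NCAPH (chr2:96335766-96377091) had 1080 counts (65.8 CPM) in the knockout-labelled library and 958 (43.8 CPM) in the control, a ratio of 1.504 (1.38 to 1.64). NCAPG (chr4:17810979-17844865) had 1919 counts (117 CPM) in the knockout-labelled library and 1118 (51.1 CPM) in the control, a ratio of 2.29 (2.13 to 2.47) and a log2 ratio of 1.18. NCAPG was the condensin member furthest from the control, and its interval did not overlap that of any other condensin member. It took 12.5% (11.95 to 13.0) of the condensin subunit counts in the knockout-labelled library and 7.76% (7.33 to 8.21) in the control. Over the 10 members, condensin held 41.9% (41.4 to 42.4) of the counts in the knockout-labelled library and 36.7% (36.2 to 37.1) in the control.

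Condensin II differs from condensin I by NCAPD3, NCAPG2 and NCAPH2. Of these 3 genes, 1 passed the size rule as higher and 0 as lower (background 6.78% and 5.69%). Their median log2 ratio was 0.71 (0.12 over all compared symbols). NCAPH2, its kleisin, had 62.2 CPM in the knockout-labelled library and 30.2 in the control, a ratio of 2.06 (1.86 to 2.27), and it was under the rule with TMM (log2 ratio 0.90), with both other scalings and with a pseudocount of 5 CPM. Of the summed counts on the subunits specific to either complex, those of condensin I made up 53.3% (52.5 to 54.1) in the knockout-labelled library and 52.7% (51.8 to 53.5) in the control, and these intervals overlap. The 3 paralogous pairs within that sum differed in opposite directions. NCAPG made up 41.1% (39.7 to 42.6) of the NCAPG and NCAPG2 counts in the knockout-labelled library and 27.7% (26.3 to 29.1) in the control. NCAPH made up 51.4% (49.3 to 53.6) of the NCAPH and NCAPH2 counts in the knockout-labelled library and 59.2% (56.7 to 61.6) in the control, and NCAPD2 made up 60.9% (59.8 to 62.0) of the NCAPD2 and NCAPD3 counts in the knockout-labelled library and 65.0% (63.9 to 66.1) in the control.

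**Figure D3:**
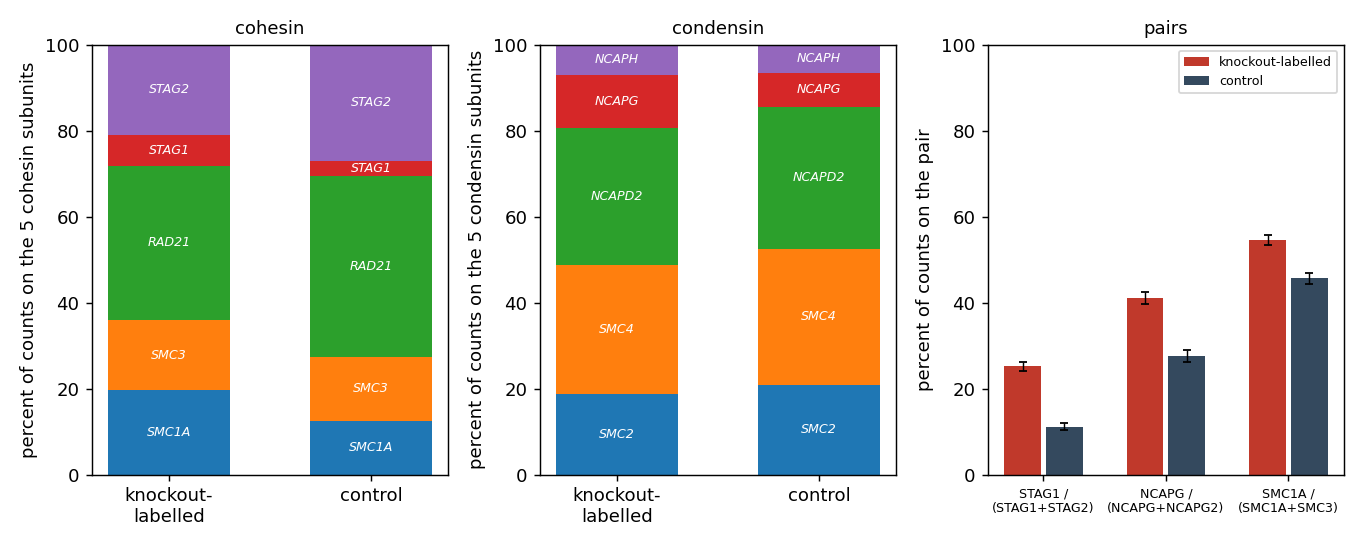
Shares of counts in the knockout-labelled library (left of each pair) and the control (right). The stacked bars give the percent of counts on each of the 5 cohesin and 5 condensin subunits, and the grouped bars the percent on the first-named gene of a pair with exact 95% intervals; STAG1 holds 25.2% of STAG1 and STAG2 counts against 11.2% in the control.

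Levels of different genes were compared per kilobase of exon sequence (GENCODE 29, all basic transcripts merged). In the knockout-labelled library RAD21 was at 84.4 CPM per kb, NCAPD2 at 53.9, SMC3 at 51.6, SMC4 at 42.8, STAG2 at 41.3, SMC2 at 28.0, SMC1A at 25.7, NCAPG at 25.1, NCAPH at 21.8 and STAG1 at 13.99. In the control RAD21 was at 86.4 CPM per kb, STAG2 at 46.5, SMC3 at 41.2, NCAPD2 at 39.3, SMC4 at 31.9, SMC2 at 21.8, NCAPH at 14.5, SMC1A at 14.3, NCAPG at 10.96 and STAG1 at 5.89. RAD21 stood first and STAG1 last in both orders. The neighbours whose counting intervals overlapped were NCAPD2 and SMC3, SMC4 and STAG2, and SMC1A and NCAPG in the knockout-labelled library, and SMC3 and NCAPD2, and NCAPH and SMC1A in the control. SMC1A has a long untranslated exon sequence, and per kilobase of coding sequence it stood above SMC3 in the knockout-labelled library, at 68.9 CPM per kb against 58.2, and below it in the control, at 38.5 against 46.4. With coding length the places between RAD21 and STAG1 changed for other members too, and in the knockout-labelled library SMC4 (72.5 CPM per kb), STAG2 (72.1) and NCAPD2 (71.1) followed RAD21.

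The position of the genes was examined for STAG1 and NCAPG, since some of their exons overlap a gene on the opposite strand. The library kit marks strand, but the sources used here do not state whether the counting used it. Exons of PCCB, which encodes a subunit of propionyl-CoA carboxylase, overlap 25.3% of the merged STAG1 exons. PCCB had 1058 counts (64.5 CPM) in the knockout-labelled library and 2114 (96.6 CPM) in the control, a ratio of 0.667 (0.619 to 0.719). Exons of LCORL overlap 35.0% of the merged NCAPG exons, and LCORL had 626 counts (38.2 CPM) in the knockout-labelled library and 1467 (67.0 CPM) in the control, a ratio of 0.569 (0.517 to 0.625). In both places the overlapping gene lay on the other side of 1 from the subunit gene. Summed with their overlapping gene, STAG1 gave a ratio of 1.16 (1.10 to 1.22) and NCAPG a ratio of 1.31 (1.24 to 1.39), and the part of the overlap in these results was not tested. SMC4 overlaps TRIM59 over 23.9% of its exons, a gene of 10.7 CPM in the knockout-labelled library and 7.18 CPM in the control. It also overlaps IFT80 over 3.50%, with 23.6 CPM in the knockout-labelled library and 48.8 CPM in the control. RAD21 overlaps UTP23 (9.35%) and RAD21-AS1 (4.62%), and NCAPD2 overlaps MRPL51 (8.35%).

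Compared genes near STAG1 and NCAPG were set beside them. Among the 11 other compared genes within 2 Mb of STAG1, 0 were at least 2-fold higher and 0 lower, with a median log2 ratio of 0.17. Among the 7 other compared genes within 2 Mb of NCAPG the counts were also 0 and 0, with a median of -0.01. With a background of 6.78% higher and 5.69% lower, counts of 0 in windows this small are not particular to these loci. A local cause was not tested. On whole chromosomes, the median log2 ratio was 0.07 on chromosome 3, 0.14 on chromosome 4 and 0.08 on the X chromosome, which holds both SMC1A and STAG2 although these differed in direction. Chromosome 10, which carries SMC3, had a median of -0.18, the lowest of all chromosomes, so that SMC3 stood 0.50 above the genes of its own chromosome.

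**Figure D4:**
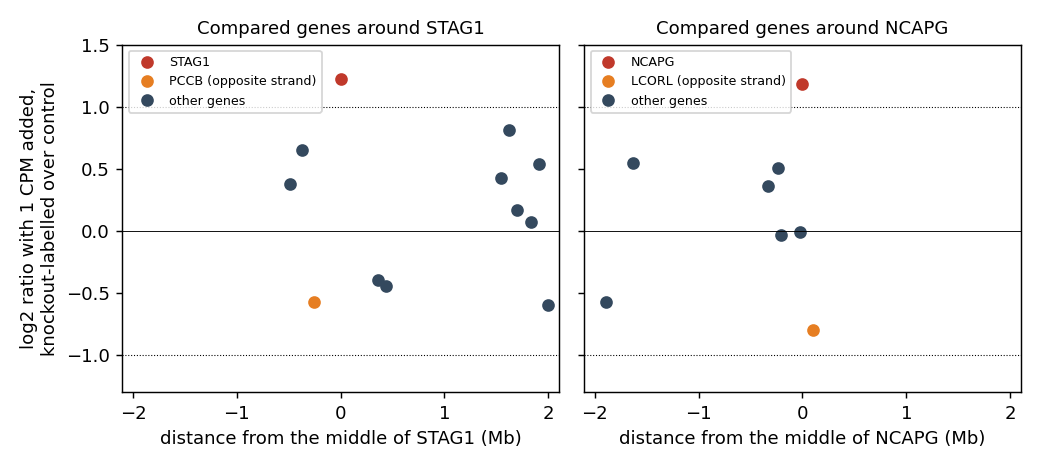
Log2 ratio with 1 CPM added (vertical axis, knockout-labelled over control) of every compared gene within 2 Mb of STAG1 (left panel) and of NCAPG (right panel), against its distance from the middle of that gene (horizontal axis, Mb). The subunit gene is red, the gene that overlaps it on the opposite strand orange and other genes dark blue; STAG1 (1.23) and NCAPG (1.18) are the only points above the upper dotted line, which marks a 2-fold difference, and 0 points lie below the lower one.

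RefSeq promoter windows, from 250 bases before to 50 after a start site, were matched for 9 of the 10 members, with 14 start sites in all. No window was available for RAD21. TTTGAA, the letters of an element found in genes of late cell cycle expression, occurred in at least 1 window of 5 members (NCAPG, NCAPD2, SMC2, SMC3 and SMC4) and in 15.2% of all 35116 promoter windows. CCAAT occurred for 4 members (STAG1, STAG2, NCAPD2 and NCAPH) and in 34.6% of all windows. GCGGGAA occurred for 3 members (NCAPG, STAG1 and SMC1A) and in 6.55% of all windows, and GCGCCAAA for 1 (a further start of STAG2) and in 0.652%. Among the 9 members matched, NCAPG alone had both TTTGAA and GCGGGAA. In the sequence shown above they lie 35 and 45 bases before its start, and a further GCGGGAA lies on the other strand 101 bases before it. NCAPG was shown for the size of its ratio, and the share of all windows that hold both motifs was not computed. STAG1 had GCGGGAA on the other strand 182 bases before its start, which the most upstream window of STAG2 did not hold. The counts are per member, and a member with more than 1 start site had more windows in which to match. The shares are per window, so counts and shares are not in the same unit. A match is a description of letters and not a binding site.

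Of 9 genes that load, release and acetylate cohesin, 1 was higher and 0 were lower by the size rule (background 6.78% and 5.69%). Their median log2 ratio was 0.18. The log2 ratio was above 0 for 8 of them and below 0 for ESCO1, and 58.1% of all compared symbols were above 0. CDCA5 was also below 0 with TMM (-0.02) and both other scalings, and HDAC8 with the median of gene ratios (-0.015). ESCO2, an acetyltransferase that modifies SMC3 during replication, had 1125 counts (68.6 CPM) in the knockout-labelled library and 416 (19.0 CPM) in the control, a ratio of 3.61 (3.22 to 4.05). Its paralog ESCO1, chosen after its values were seen, had 428 counts (26.1 CPM) in the knockout-labelled library and 1082 (49.4 CPM) in the control, a ratio of 0.528 (0.471 to 0.591), and its log2 ratio was -0.90, or -1.02 with TMM, which passes the size rule. ESCO2 made up 72.4% (70.1 to 74.7) of the ESCO1 and ESCO2 counts in the knockout-labelled library and 27.8% (25.5 to 30.1) in the control. The paralog with more counts thus differed between the libraries. The remaining members, all between, had log2 ratios up to 0.76 for NIPBL, the cohesin loader, and down to 0.10 for CDCA5 (sororin), which stabilises cohesin on replicated DNA.

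Of 8 genes of cohesin protection and cleavage, 1 was higher and 0 were lower (background 6.78% and 5.69%), with a median of 0.11. ESPL1, the separase that cuts RAD21, had 58.1 CPM in the knockout-labelled library and 24.9 in the control, a ratio of 2.33 (2.099 to 2.60). PTTG1 (securin), the inhibitor of separase, was chosen after its values were seen and had 70.1 CPM in the knockout-labelled library and 97.8 in the control, a ratio of 0.717 (0.667 to 0.770). The log2 ratio was above 0 for 5 genes of this list and below 0 for 3, PPP2R5C being the lowest at -0.77. Of all compared symbols, 58.1% were above 0. SGO1 was also below 0 with TMM (-0.07) and both other scalings. Subunits of meiotic cohesin were under the minimum level, with 6 counts for SMC1B, 6 for REC8, 0 for RAD21L1 and 0 for STAG3 in the knockout-labelled library, and 3, 25, 2 and 5 counts for the same genes in the control. A count of 0 is read as up to 3 counts, or 0.183 CPM in the knockout-labelled library. The counts on the SMC and STAG genes were thus almost all on the mitotic forms.

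In the lists of other structural partners, 0 genes passed the size rule in either direction with library totals (background 6.78% higher and 5.69% lower). ZNF143, a loop boundary factor, did as lower with each other scaling (log2 ratio -0.98, and -1.10 with TMM). The 7 compared genes of the SMC5/6 complex, a further SMC complex with roles in DNA repair, had a median log2 ratio of 0.24. SMC6 had 131 CPM in the knockout-labelled library and 71.2 in the control, and its partner SMC5 had 74.3 CPM in the knockout-labelled library and 63.8 in the control. Of the 4 compared loop boundary factors (median 0.41), CTCF had 184 CPM in the knockout-labelled library and 103 in the control, a ratio of 1.79 (1.70 to 1.89), and MAZ had 422 CPM in the knockout-labelled library and 267 in the control. Of the 8 mitotic chromosome partners (median 0.23), topoisomerase TOP2A had 469.8 CPM in the knockout-labelled library and 580.1 in the control, and MKI67, which coats mitotic chromosomes, had 299.8 CPM in the knockout-labelled library and 155 in the control. TOP2A and the condensin subunits, which act together on mitotic chromosomes, stood on opposite sides of 1. Of the 8 partners, 6 had a log2 ratio above 0, and 2 were below it, CDK1 (-0.68) and TOP2A (-0.30). Of all compared symbols, 58.1% were above 0.

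**Figure D5:**
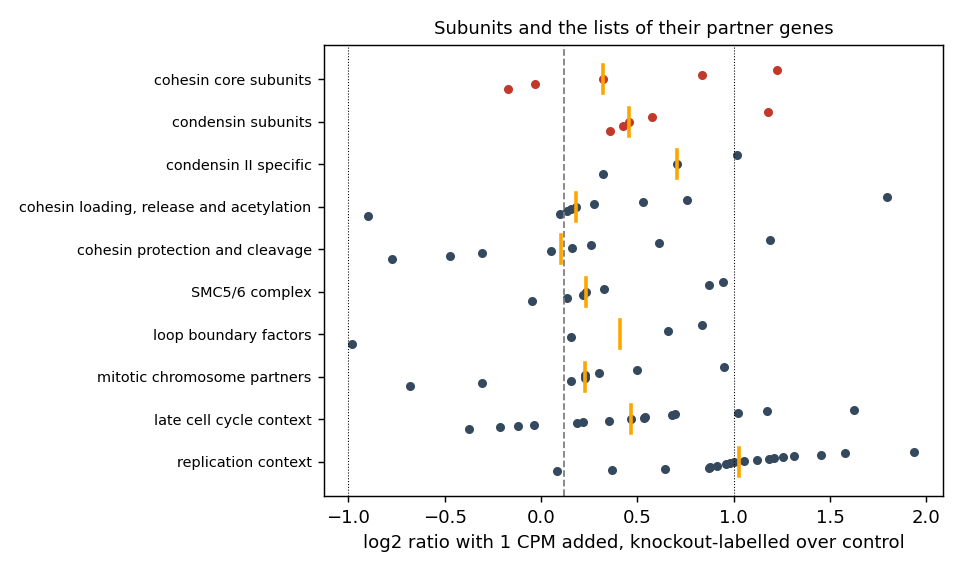
Log2 ratio with 1 CPM added (horizontal axis, knockout-labelled over control) of each compared gene of the subunit lists (red) and of 8 lists of partner genes (dark blue), with the list median in orange. The dashed line is the median of all compared symbols (0.12) and the dotted lines mark 2-fold differences; the replication list has the highest median, 1.03, against 0.32 for cohesin and 0.46 for condensin.

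Cell cycle genes give the setting of these values, since condensin genes and ESCO2 are known to be transcribed in a cell cycle dependent manner. Of 18 replication genes, 9 were higher and 0 lower (background 6.78% and 5.69%), with a median log2 ratio of 1.03. POLA1, a subunit of DNA polymerase alpha, had 71.9 CPM in the knockout-labelled library and 18.0 in the control, and the helicase subunit gene MCM4 had 452 CPM in the knockout-labelled library and 181 in the control. The others past the rule were MCM3, MCM7, FEN1, LIG1, GINS2, CDC45 and TYMS, with log2 ratios of 1.05 to 1.58, of which FEN1 was under the rule with TMM (0.93) and MCM7 with the upper quartile (0.98). Of 15 late cell cycle genes, 3 were higher and 0 lower (background 6.78% and 5.69%), with a median of 0.47. The log2 ratio was above 0 for 11 of them and below 0 for TTK, BUB1, NUSAP1 and CCNB2. Of all compared symbols, 58.1% were above 0. The 3 higher genes were CENPF (log2 ratio 1.62), ASPM (1.17) and CENPE (1.02, and 0.90 with TMM). TTK was the lowest of the list, at -0.38. The part of cell cycle distribution in the subunit values was not tested.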

How the data were processed

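RNA was measured in 2 libraries, 1 per group. The authors deposited raw counts per gene row (58173 rows per library). TopHat and the build GRCh38 are named in the submitters' processing notes; the sources used here do not state the counting program, the annotation or the use of strand. Rows were summed per symbol and scaled to CPM by library total. Size was taken as the log2 ratio with a pseudocount of 1 CPM, among symbols with a mean of at least 1 CPM. Intervals were computed with scipy 1.17.1 and cover counting error only; PCR duplicates would make them too narrow. Scaling factors came from edgeR 4.0.16 (TMM, upper quartile) and DESeq2 1.42.0 (median of gene ratios). The procedure was checked on simulated counts with set differences and counting error only. That check says nothing of variation between cultures or of PCR duplicates. Every member was named, and from each list the genes past the size rule or, with none, the 2 most abundant. Further list genes were named after their values were seen. They were named for the direction or size of their ratio, or for a call or sign that changed with scaling. Members and lists were chosen with earlier results of these data known. Positions come from RefSeq (GRCh38.p14), exon lengths and overlaps from GENCODE 29, which may differ from the authors' annotation.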

Additional observations from a re-analysis of the deposited data

How the results depend on the processing

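The 2 higher and 0 lower members were the same in number under every scaling, pseudocount, filter and choice of rows tried; at a 3-fold rule 0 were higher. The members' median log2 ratio of 0.44 became 0.32 with TMM, 0.30 with the upper quartile and 0.28 with the median of gene ratios. It was 0.39 after subtracting the median of the same chromosome, and 0.58 after subtracting the median of genes within 2 Mb, an alternative added after the data had been seen. Of the 72 compared partner genes, 15 were higher (9 of them in the replication list) and 0 lower, with a background of 6.78% and 5.69%. With each other scaling 2 were lower (ESCO1 and ZNF143), while 12 were higher with TMM and 11 with either of the remaining scalings. The background with TMM was 4.75% higher and 6.95% lower. With a pseudocount of 0.1 CPM 16 were higher and 1 lower, and with 5 CPM 12 and 0. At a 1.5-fold rule 32 were higher and 4 lower (background 20.3% and 13.2%), and at 3-fold 3 were higher (background 0.933%). Of 80 recomputed log2 ratios of single members, 52 stayed within their counting interval, 28 moved beyond it and 0 changed sign. All 28 moved with a change of scaling, where only STAG1 and NCAPH, both with TMM, stayed within. The filters and the choice of rows could hardly move a member, since each has 1 row and lies far above the filters. No paired analysis was possible because each group has 1 library, and no library could be left out. Depth limits what can be said of the meiotic subunits.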
